A study of Mus musculus with 10 samples.

Results

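Genes that T cells use to stay in lymphoid organs, to leave them or to settle in tissue were followed in CD8+ T cells cultured with tumor cells, with and without sodium acetate (NaAc). They are Klf2, Elf4, S1pr1, S1pr4, Ccr7, Cd69, Itgae, Cxcr6 and Zfp683, chosen by name as 9 of the 57825 genes in the deposited table, and each name occurs there once. All 9 were among the 15710 genes whose mean over the samples was at least 0.5 FPKM (fragments divided by gene length and by the sequencing depth of the sample), the genes that were tested. CD8+ T cells came from the spleens of female Balb/c mice, were activated for 12 h on plate-bound anti-CD3 with anti-CD28 and IL-2, and were then kept for 24 h with 5 mM NaAc or without it. Both groups were co-cultured for 48 h with 4T1 cells, a mouse mammary carcinoma line, and RNA was taken from the purified CD8+ T cells, labelled day 3. The groups are called CD8+4T1 (without NaAc, 5 samples) and CD8+4T1+NaAc (5 samples). Neither group is free of tumor cells or of activation, and the labels do not say that samples came from separate animals, so p-values measure the spread between these samples, which may be technical.

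Lymphocyte traffic depends on receptors that read chemical gradients. KLF2 is a transcription factor of resting T cells that switches on S1pr1, whose product follows sphingosine-1-phosphate (S1P) out of lymphoid tissue, while CD69 binds S1PR1 and takes it off the cell surface, which holds a cell in place. CCR7 leads T cells into lymph nodes along CCL19 and CCL21, and CD103 (Itgae), CXCR6 and the transcription factor HOBIT (Zfp683) mark CD8+ T cells that reside in tissues. Activation through the T cell receptor lowers Klf2 and S1pr1 and raises Cd69.

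The FPKM referred to between 16306447 and 18853726 fragments per sample. The listed genes held between 95.5% and 97.9% of these in CD8+4T1 and between 89.8% and 92.1% in CD8+4T1+NaAc. The FPKM of a sample summed to 310965 to 335151 in the former and 282995 to 295928 in the latter. Scaling every sample to the same total moved the median over all tested genes from -0.02 to 0.15 on the log2 scale. Scaling to 15 T cell markers moved it to 0.12. A shift of the whole table is thus part of a member's change under either. Median-ratio scaling, by the median ratio of a sample's genes to their means, left the median at -0.01. Members whose call turned on the same total or on T cell markers are given with those values. Cd8a, which encodes the CD8 alpha chain, stood at 78.6 ± 2.34 FPKM in CD8+4T1 and 76.5 ± 4.37 FPKM in CD8+4T1+NaAc (SD, n = 5). In bulk RNA, fewer cells of a type and less RNA per cell cannot be told apart.

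At the level of the set, Klf2 and Ccr7 were higher and S1pr4 and Cd69 lower in CD8+4T1+NaAc, while S1pr1, Elf4, Itgae, Cxcr6 and Zfp683 did not pass the test. Thus 4 of the 9 (44.4%) passed an adjusted p of 0.05 in limma, a linear model that shares variance information between genes, beside 36.5% of all genes tested. Of these, 2 were higher, beside 17.6% of all genes, and 2 were lower, beside 19.0%. The samples of the groups did not overlap for 1 member, Klf2 (11.1%), beside 26.4% of all genes. The median log2 fold change of the members was 0.27 and their median absolute log2 fold change was 0.32, beside -0.02 and 0.26 for all genes tested. As deposited, the share of members called was thus near that of all genes. With samples scaled to the same total 5 members were higher and 1 lower, beside 31.2% and 8.83% of all genes, and scaled to T cell markers 5 were higher and 0 lower, beside 25.8% and 8.27%. These counts are no result about the set.

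**Figure D1:**
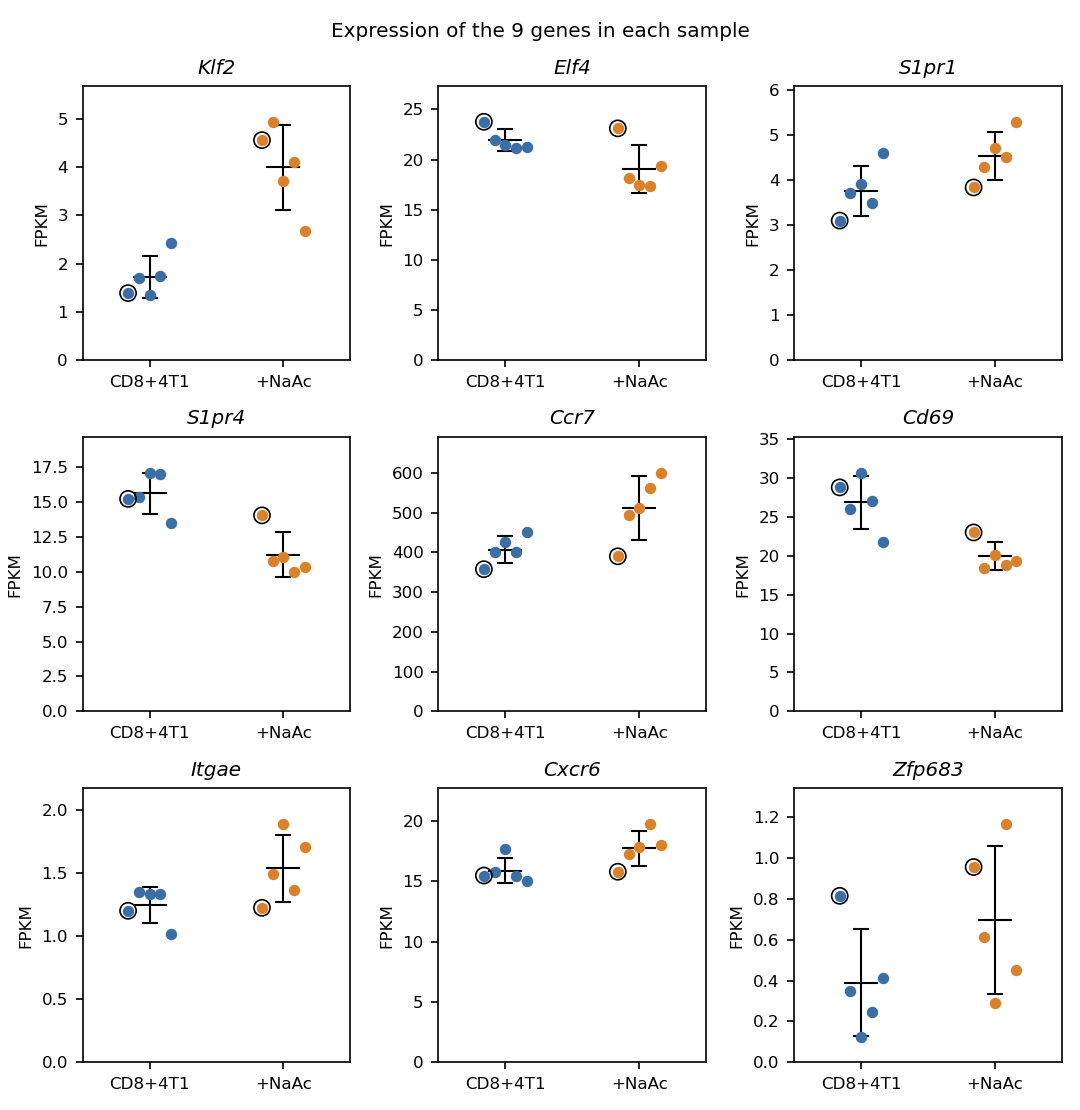
FPKM (linear axes from 0) of each of the 9 genes in every sample, with replicates 1 to 5 from left to right, replicate 1 ringed, and lines for the mean and SD of 5 samples of CD8+4T1 (blue) and CD8+4T1+NaAc (orange). Klf2 is the member whose groups do not overlap, from 1.36 to 2.43 in CD8+4T1 and from 2.67 to 4.94 in CD8+4T1+NaAc.

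The transcription factors came first. Klf2 (ENSMUSG00000055148, chromosome 8, 73072877 to 73075500, + strand in the deposited table) was at 1.39, 1.71, 1.36, 1.74 and 2.43 FPKM in CD8+4T1 replicates 1 to 5. In CD8+4T1+NaAc it was at 4.56, 4.94, 3.71, 4.10 and 2.67 FPKM. Every NaAc sample was above every control, and the nearest pair were replicates 5 of both groups. The means were 1.73 ± 0.429 and 3.995 ± 0.873 FPKM (SD, n = 5), a ratio of 2.31. On the log2 scale the difference was 1.16 (SE 0.19, 95% interval 0.75 to 1.58, adjusted p = 0.000798 in limma, exact permutation test, two-sided, p = 0.00794, the smallest that 5 against 5 samples can give). Between 41 and 172 fragments lay behind each value.

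Because the 4T1 cells had been in the same dish, the levels of 20 epithelial and 4T1 marker genes stand beside Klf2. Their summed level was 28.1, 31.0, 26.9, 38.5 and 41.0 FPKM in CD8+4T1 and 164, 294, 188, 226 and 126 FPKM in CD8+4T1+NaAc, with 13 of 16 tested markers higher. Krt8, a keratin of simple epithelia, rose from 3.42 to 34.2 FPKM, while Epcam, an epithelial adhesion molecule, was at 0.519 and 0.699 FPKM and did not pass the test. Within CD8+4T1 the order of the samples by Klf2 was the order by this sum, highest in replicate 5 and lowest in replicate 3. Within CD8+4T1+NaAc both were highest in replicate 2 and lowest in replicate 5, but replicate 1 was second highest by Klf2 and second lowest by the sum. The part of tumor cell RNA in the Klf2 difference was not tested. Relative to Cd8a within each sample, Klf2 was again without overlap, at 0.0219 against 0.0528.

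**Figure D2:**
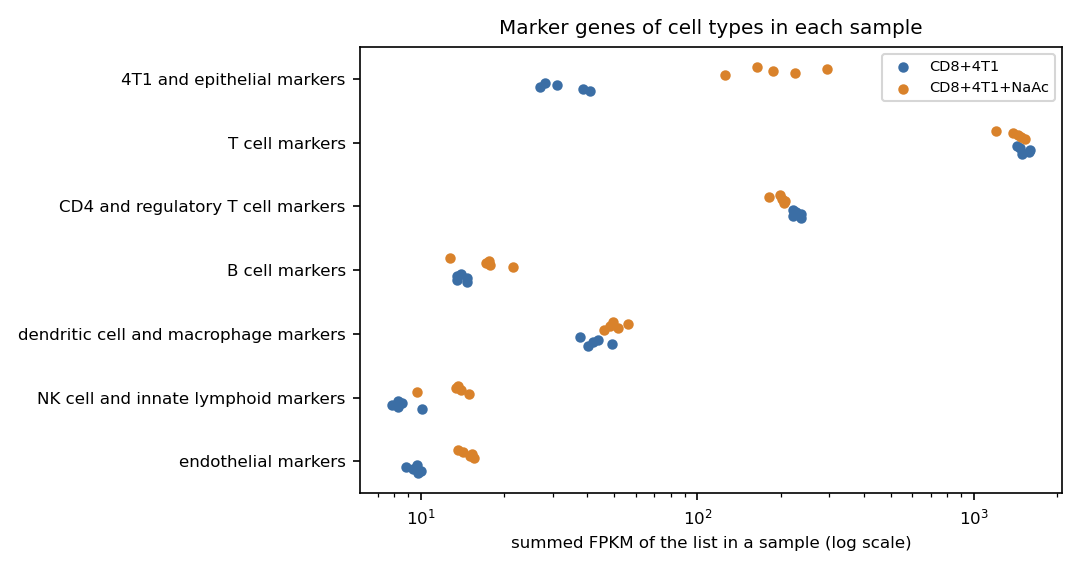
Summed FPKM (log10 axis) of the marker lists in each of the 10 samples, CD8+4T1 in blue and CD8+4T1+NaAc in orange, with each point 1 sample. The 4T1 and epithelial sum runs from 26.9 to 41.0 in CD8+4T1 and from 126 to 294 in CD8+4T1+NaAc, and the T cell sum from 1427 to 1598 and from 1198 to 1530.

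Markers of other cell types were read in the same way. Their counts stand beside 17.6% of all genes higher and 19.0% lower as deposited. With samples scaled to the same total these shares were 31.2% and 8.83%. T cell markers (15 tested) had 7 genes lower and 1 higher as deposited, and 5 lower and 5 higher with samples scaled to the same total, with Cd3e, a chain of the T cell receptor complex, at 33.8 and 26.3 FPKM. Cd4, the co-receptor of helper T cells, was higher, at 0.541 and 1.60 FPKM, while the sums of its list (6 tested, 1 higher, 1 lower) ran from 222 to 238 and from 182 to 208 FPKM, most of it Il2ra (166 and 136 FPKM), which activated CD8+ T cells also express. Of the B cell list 3 of 8 genes were tested, with sums from 13.5 to 14.7 and from 12.8 to 21.5 FPKM. In the dendritic cell and macrophage list (7 tested, 2 higher, 1 lower, sums from 37.7 to 49.3 and from 46.1 to 56.3 FPKM) Siglech was at 0 in every sample, and Itgax, the CD11c integrin, was at 1.05 and 1.11 FPKM. Its risers were Fscn1, an actin bundler of mature dendritic cells, at 8.97 and 18.7 FPKM, and Lyz2, a lysozyme of myeloid cells, at 0.536 and 1.12 FPKM. The NK and innate lymphoid list had 3 genes tested and 1 higher, Kit at 2.90 and 6.12 FPKM, with sums from 7.88 to 10.1 and from 9.73 to 15.0 FPKM, the NK receptor Ncr1 at 0.0227 and 0.0932 FPKM and Klra4 at 0. The endothelial list had 3 genes tested and all higher (Pecam1, Egfl7 and Pdpn, with Pecam1 at 7.50 and 11.3 FPKM), with sums from 8.82 to 9.99 and from 13.6 to 15.5 FPKM, while Cdh5, its cadherin, was at 0.00273 and 0.0333 FPKM and Emcn and Lyve1 were at 0. None of these lists was tested for its part in a member's difference.

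The RefSeq table used here (GRCm38.p6) was matched for 4 of the members, and the 250 bases before the start of the called genes Klf2 and S1pr4 are shown since KLF family proteins bind CACCC boxes and Klf2 is itself among the called genes. They are read 5′ to 3′ on the strand of the gene and end at the base before its start. The stretch before Klf2 lies at chr8:72318812-72319061 (+ strand) and that before S1pr4 at chr10:81500138-81500387 (- strand). Capitals mark matches to CACCC, which lie on the other strand in both.
Klf2: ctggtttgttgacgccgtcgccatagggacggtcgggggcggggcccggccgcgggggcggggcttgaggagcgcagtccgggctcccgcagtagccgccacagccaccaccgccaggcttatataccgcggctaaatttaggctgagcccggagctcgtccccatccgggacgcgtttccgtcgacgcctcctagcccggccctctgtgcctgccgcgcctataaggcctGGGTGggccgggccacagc
S1pr4: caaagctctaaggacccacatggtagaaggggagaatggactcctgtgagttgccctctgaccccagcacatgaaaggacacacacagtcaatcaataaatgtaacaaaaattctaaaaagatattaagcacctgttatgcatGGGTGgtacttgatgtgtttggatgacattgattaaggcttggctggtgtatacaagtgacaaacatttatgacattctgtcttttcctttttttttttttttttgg
Both strands were searched for CACCC. They were also searched for the FOXO motif GTAAACA, and for the motif of ETS factors such as ELF4, CCGGAAG. Each window held 1 match to CACCC, from -19 to -15 before Klf2 and from -107 to -103 before S1pr4, with 0 matches to the FOXO and ETS motifs, so no matches overlapped. In windows of the same length, 52.0% of all 32851 RefSeq promoters hold the CACCC box, 3.17% the FOXO motif and 6.91% the ETS motif. The 2 windows differed in composition, with 71.2% G and C and 29 CpG dinucleotides before Klf2 and 38.8% and 0 before S1pr4, where the median promoter has 52.4% and 6. A match describes the letters and is not a binding site.

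Elf4 (ENSMUSG00000031103, chromosome X, 47499923 to 47552009, - strand) encodes an ETS factor that keeps naive CD8+ T cells quiescent and activates Klf2. Its levels were 23.8, 22.0, 21.5, 21.1 and 21.3 FPKM in CD8+4T1 and 23.1, 18.1, 17.4, 17.4 and 19.3 FPKM in CD8+4T1+NaAc. Replicates 2 to 5 of the NaAc group lay below every control, and replicate 1 lay among them. The log2 fold change was -0.21 (SE 0.08, 95% interval -0.38 to -0.03, adjusted p = 0.0615 in limma). Without that sample the adjusted p was 0.00141, and with samples scaled to the same total the log2 fold change was -0.03, and scaled to T cell markers -0.06. In all, Elf4 passed in 7 of 25 alternatives. Among them were the replicate block (adjusted p = 0.0293 in limma), protein-coding genes alone (0.0428) and a mean of at least 5 FPKM (0.0474).

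Zfp683 (ENSMUSG00000049410, chromosome 4, 133781149 to 133786307, + strand), which encodes HOBIT, was the lowest of the 9 genes. It was at 0.814, 0.351, 0.125, 0.248 and 0.412 FPKM in CD8+4T1 and at 0.954, 0.613, 0.288, 1.17 and 0.450 FPKM in CD8+4T1+NaAc. The groups overlapped over most of their range, and 3 to 29 fragments lay behind a value. The log2 fold change of 0.72 had an interval from -0.27 to 1.72 (adjusted p = 0.240 in limma).

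Of the S1P receptors among the members, S1pr4 passed the test and S1pr1 did not. S1pr1 (ENSMUSG00000045092, chromosome 3, 115504082 to 115508721, - strand), the egress receptor, was at 3.10, 3.71, 3.93, 3.49 and 4.60 FPKM in CD8+4T1. In CD8+4T1+NaAc it was at 3.84, 4.30, 4.71, 4.52 and 5.30 FPKM. Replicate 5 was the highest and replicate 1 the lowest of both groups, and the groups overlapped. The means were 3.76 ± 0.555 and 4.54 ± 0.537 FPKM (SD, n = 5), with a log2 fold change of 0.27 (SE 0.11, 95% interval 0.02 to 0.52, adjusted p = 0.0909 in limma, exact permutation test, two-sided, p = 0.0635). It passed the test with samples scaled to the same total (0.44, adjusted p = 0.00771) or to T cell markers (0.41, adjusted p = 0.0085). It also passed without replicate 5 of CD8+4T1 (adjusted p = 0.0341) or without replicate 1 of CD8+4T1+NaAc (adjusted p = 0.0367). It did not pass with median-ratio scaling (0.27, adjusted p = 0.0857 in limma).

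S1pr4 (ENSMUSG00000044199, chromosome 10, 81333581 to 81335966, - strand), an S1P receptor of lymphocytes, was at 15.2, 15.3, 17.1, 17.0 and 13.5 FPKM in CD8+4T1. In CD8+4T1+NaAc it was at 14.0, 10.8, 11.0, 9.96 and 10.3 FPKM. Replicates 2 to 5 with NaAc were below every control and replicate 1 was above control replicate 5. The mean fell from 15.6 ± 1.48 to 11.2 ± 1.62 FPKM (SD, n = 5), or by a log2 fold change of -0.48 (SE 0.10, 95% interval -0.69 to -0.26, adjusted p = 0.00332 in limma, exact permutation test, two-sided, p = 0.0159). The call held in all 10 fits with 1 sample left out, and with samples scaled to the same total (-0.30, adjusted p = 0.0340). It also held with median-ratio scaling (-0.47, adjusted p = 0.00368 in limma). Scaled to T cell markers the log2 fold change was -0.33 with an adjusted p of 0.0636.

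Ccr7 (ENSMUSG00000037944, chromosome 11, 99035022 to 99045903, - strand) was by far the most abundant member, 104th of the 15710 genes in CD8+4T1 and 60th in CD8+4T1+NaAc. It was at 358, 402, 426, 400.1 and 451 FPKM without NaAc and at 390.3, 494, 512, 561 and 600.4 FPKM with it. Again replicates 2 to 5 with NaAc lay above every control, and replicate 1 lay within the control range. The means were 407 ± 34.5 and 512 ± 79.6 FPKM (SD, n = 5), with a log2 fold change of 0.32 (SE 0.11, 95% interval 0.07 to 0.56, adjusted p = 0.0439 in limma, exact permutation test, two-sided, p = 0.0397). Although 11829 to 19723 fragments lay behind each value, the call held in 2 of the 10 fits with 1 sample left out. Those were the fits without replicate 5 of CD8+4T1 or replicate 1 of CD8+4T1+NaAc. Over the 10 the adjusted p ran from 0.00195 to 0.101. With samples scaled to the same total the log2 fold change was 0.50 (adjusted p = 0.00286), and scaled to T cell markers 0.46 (adjusted p = 0.000893). The call was lost with no filter on low values (adjusted p = 0.0731). It was also lost in limma without trend and robust moderation (adjusted p = 0.0592).

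Of the retention genes, Cd69 passed the test, and Itgae, Cxcr6 and Zfp683 did not. Cd69 (ENSMUSG00000030156, chromosome 6, 129244288 to 129252399, - strand), the early activation antigen that opposes S1PR1, was at 28.8, 26.0, 30.7, 27.1 and 21.7 FPKM in CD8+4T1. In CD8+4T1+NaAc it was at 23.0, 18.4, 20.1, 18.8 and 19.3 FPKM. Replicates 2 to 5 with NaAc were below every control, and replicate 1 was above control replicate 5. The mean fell from 26.9 ± 3.36 to 19.9 ± 1.83 FPKM (SD, n = 5), or by a log2 fold change of -0.42 (SE 0.09, 95% interval -0.63 to -0.22, adjusted p = 0.00494 in limma, exact permutation test, two-sided, p = 0.0159). With samples scaled to the same total it was -0.25 (adjusted p = 0.0725) and scaled to T cell markers -0.28 (adjusted p = 0.0851), so the direction was kept and the call was not. With median-ratio scaling the call was kept (-0.42, adjusted p = 0.00536 in limma).

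Itgae (ENSMUSG00000005947, chromosome 11, 72981409 to 73038272, + strand), the alpha chain of the integrin that binds E-cadherin, was at 1.20, 1.35, 1.34, 1.34 and 1.02 FPKM in CD8+4T1 and at 1.23, 1.49, 1.89, 1.37 and 1.71 FPKM in CD8+4T1+NaAc. Of the NaAc samples, 4 were above every control and replicate 1 was not. Its log2 fold change was 0.27 (95% interval -0.05 to 0.59, adjusted p = 0.165 in limma). Cxcr6 (ENSMUSG00000048521, chromosome 9, 123635540 to 123640825, + strand), the receptor for CXCL16, was at 15.5, 15.8, 17.7, 15.4 and 15.0 FPKM and at 15.8, 17.2, 17.8, 19.7 and 18.0 FPKM. Of the NaAc samples, 3 were above every control, and the log2 fold change was 0.16 (95% interval 0.01 to 0.30, adjusted p = 0.0881 in limma). Scaled to the same total both passed the test, at 0.44 (adjusted p = 0.0297) for Itgae and 0.33 (adjusted p = 0.00238) for Cxcr6, and scaled to T cell markers at 0.41 (adjusted p = 0.0398) and 0.30 (adjusted p = 0.00238). Cxcr6 also passed without replicate 3 of CD8+4T1 (adjusted p = 0.0435) or replicate 1 of CD8+4T1+NaAc (adjusted p = 0.0201). With median-ratio scaling neither Itgae (0.28, adjusted p = 0.157) nor Cxcr6 (0.16, adjusted p = 0.0772) passed in limma. Itgae shares 2810 bases with Haspin and Cxcr6 lies within Fyco1, each on the opposite strand and at a mean of 5.93 and 5.58 FPKM. These are overlaps of whole gene spans, introns included. With no strand setting stated, reads from the shared bases cannot be told apart, and their share of each gene's reads was not measured.

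**Figure D3:**
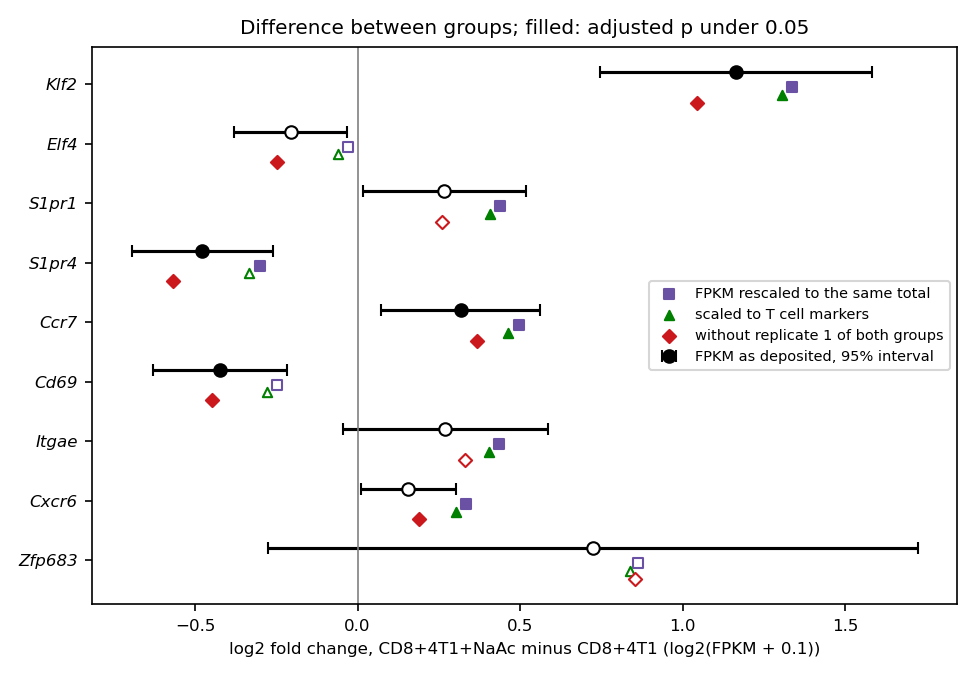
Log2 fold change of each gene, CD8+4T1+NaAc minus CD8+4T1 on log2(FPKM + 0.1), from limma with 5 samples a group; black circles carry 95% intervals and the other symbols give 3 alternatives, filled where the adjusted p was under 0.05. Klf2 stays filled in all 4, from 1.05 to 1.34, and S1pr4 and Cd69 lie below 0 in all 4.

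Across the members, replicate 1 of CD8+4T1+NaAc had the highest Elf4, S1pr4 and Cd69 and the lowest S1pr1, Ccr7, Itgae and Cxcr6 of its group. In each of these 7 genes it was thus the NaAc sample nearest to the control mean. Replicate 5 of CD8+4T1 had the highest Klf2, S1pr1 and Ccr7 and the lowest S1pr4, Cd69, Itgae and Cxcr6 of its group. Without replicate 1 of CD8+4T1+NaAc, 7 members were called, and 44.3% of all genes. Without replicate 1 of both groups 6 were called, S1pr1 not among them, and 44.4% of all genes.

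By level per length, the order was Ccr7, Cd69, Elf4, Cxcr6, S1pr4, S1pr1, Klf2, Itgae and Zfp683 in both groups. In CD8+4T1 the ranges of Cd69 and Elf4 and of Cxcr6 and S1pr4 overlapped, although within a sample Cd69 was above Elf4 in 5 of 5 and Cxcr6 above S1pr4 in 4 of 5. In CD8+4T1+NaAc the ranges of Cd69 and Elf4, of Elf4 and Cxcr6 and of S1pr1 and Klf2 overlapped, and in each pair the former was above the latter in 3 of 5 samples. Cxcr6 and S1pr4, which overlapped without NaAc, were apart with it.

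The ratio of 2 FPKM values within a sample does not depend on how samples are scaled. Ratios are given in this form, and their log2 differences were taken after adding 0.1 FPKM, which leaves some dependence on scaling for low genes. The egress receptor was set against the protein that removes it by the ratio of S1pr1 to Cd69, which was 0.144 ± 0.0399 in CD8+4T1 and 0.230 ± 0.0389 in CD8+4T1+NaAc (SD, n = 5). The difference was 0.69 on the log2 scale (SE 0.20, exact permutation test, two-sided, p = 0.0159, adjusted over 14 ratios p = 0.0278). Klf2 to Cd69 went from 0.0669 ± 0.0268 to 0.201 ± 0.0477 without overlap, a log2 difference of 1.59 (SE 0.27, exact permutation test, two-sided, p = 0.00794, adjusted p = 0.0278). S1pr1 to S1pr4 went from 0.245 to 0.414, a log2 difference of 0.74 (SE 0.20, exact permutation test, two-sided, p = 0.0159, adjusted p = 0.0278). By contrast the log2 difference of Ccr7 to Cxcr6 was 0.16 (SE 0.09, exact permutation test, two-sided, p = 0.127, adjusted p = 0.162), and that of Itgae to Cxcr6 was 0.11 (SE 0.12, p = 0.389 by the same exact permutation test).

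Relative to Cd8a, the log2 differences of Klf2 (1.21), S1pr1 (0.31), S1pr4 (-0.44), Ccr7 (0.36) and Cd69 (-0.38) each had an adjusted p of 0.0278 by the exact permutation test. Itgae (0.31) had 0.0370 and Cxcr6 (0.20) 0.0444, while Elf4 (-0.17) and Zfp683 (0.76) had 0.171 each. In all, 10 of 14 ratios had an adjusted p under 0.05. The calls are near the limit of the design, since 0 of 14 remained past it without replicate 1, 3 or 4 of CD8+4T1 or without replicate 2, 3, 4 or 5 of CD8+4T1+NaAc.

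**Figure D4:**
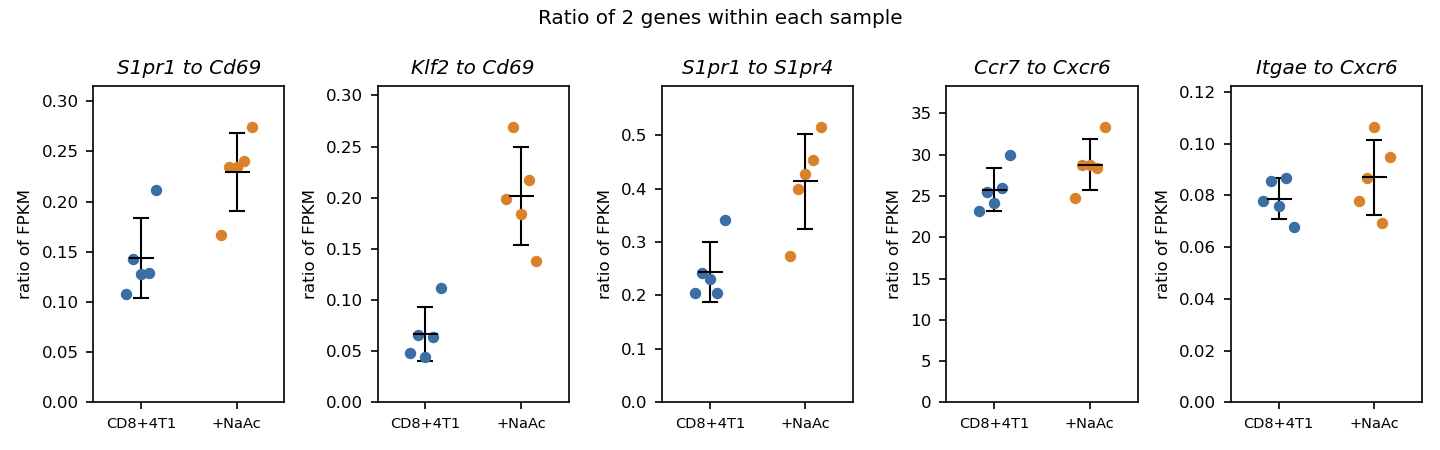
FPKM ratios of pairs of members in each sample (linear axes from 0), with replicates 1 to 5 from left to right and lines for the mean and SD of 5 samples of CD8+4T1 (blue) and CD8+4T1+NaAc (orange). Klf2 to Cd69 runs from 0.0444 to 0.112 in CD8+4T1 and from 0.138 to 0.269 in CD8+4T1+NaAc, whereas the groups overlap for Ccr7 to Cxcr6 and Itgae to Cxcr6.

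Other genes of the same pathways were read from the same limma fit. Of 16 further genes of S1P signalling that were tested, 5 were higher and 1 lower, a share of calls near the 36.5% of all genes. Spns2, an S1P exporter, was at 0.127 and 0.965 FPKM (log2 fold change 2.25, SE 0.30). It passed the filter of 0.5 FPKM only through the NaAc samples, so its difference is given as a description. Plpp2, a lipid phosphatase, rose from 14.8 to 18.8 FPKM (0.34). Sphk2, a kinase that makes S1P, fell from 10.4 to 8.67 FPKM, with a log2 fold change of -0.26. It did not pass with samples scaled to the same total (-0.08) or to T cell markers (-0.11). S1pr5, an S1P receptor of effector and NK cells, was at 0.143 and 0.197 FPKM, below the filter. With both receptors included, 7 of 18 genes were called here, 5 higher and 2 lower, and 12 with samples scaled to the same total, 11 of them higher, where 31.2% of all genes were higher.

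Around KLF2 and FOXO1, which together sustain quiescence and homing, 8 of 20 further genes were higher and 4 lower, beside 17.6% and 19.0% of all genes. Klf4, a related quiescence factor, rose from 7.66 to 16.1 FPKM (log2 fold change 1.07, SE 0.13). Klf3, a repressor of the same family, rose from 1.81 to 2.46 FPKM (0.42), and Itgb7, the beta chain that pairs with CD103, rose from 30.5 to 40.9 FPKM (0.42). Il7r, the receptor for the survival cytokine IL-7, had a log2 fold change of 0.82. The 4T1 marker sums given beside Klf2 were higher in the same samples. The part of tumor cell RNA in the genes of this and the other lists was not tested. Foxo1 itself fell from 27.7 to 22.0 FPKM (-0.34). Its call was lost when samples were scaled to the same total (-0.16) or to T cell markers (-0.19). Members included, this list had 10 genes higher and 4 lower, and 14 and 1 with samples scaled to the same total, where 31.2% and 8.83% of all genes were.

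In the CCR7 pathway, 4 of 14 further genes were higher and 3 lower, beside 17.6% and 19.0% of all genes, and its ligand genes Ccl19 and Ccl21a were at 0 in every sample. Rapgef1, an exchange factor for RAP1, rose from 20.8 to 30.0 FPKM (0.52), and Tln1, the integrin activator talin, rose from 56.7 to 68.2 FPKM (0.26). Gnb1, a G protein beta subunit, fell from 91.3 to 70.9 FPKM (-0.37) and lost its call under scaling to T cell markers (-0.22). Of this list 8 genes were called with Ccr7 included, 5 higher and 3 lower, and with samples scaled to the same total 9 were higher and 1 lower, beside 31.2% and 8.83% of all genes.

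Genes high in tissue-resident T cells were mixed, with 6 of 19 further genes higher and 6 lower, beside 17.6% and 19.0% of all genes. Rgs2, a brake on G protein signalling, fell from 59.9 to 33.0 FPKM (-0.86), and Inpp4b, a lipid phosphatase, fell from 9.25 to 5.41 FPKM (-0.77). Ahr, the aryl hydrocarbon receptor, was at 0.356 and 1.51 FPKM (1.77). As with Spns2, it passed the filter only through the NaAc samples, and the difference is a description. Itga1, which encodes CD49a, was below the filter at 1 to 8 fragments in CD8+4T1 and 45 to 111 in CD8+4T1+NaAc. The 4T1 marker sums given beside Klf2 were higher in the same samples as Spns2, Ahr and Itga1, and the part of tumor cell RNA in these genes was not tested. Prdm1, which encodes BLIMP-1, was at 1.40 and 2.37 FPKM (adjusted p = 0.0546 in limma). It passed with samples scaled to the same total (0.81, adjusted p = 0.0218) or to T cell markers (0.79, adjusted p = 0.0399). With the replicate block it did not (adjusted p = 0.0988). Runx3 was at 44.1 and 39.8 FPKM (adjusted p = 0.366). Runx3 passed, at an adjusted p of 0.000227, once replicate 1 of both groups was left out. Scaling to the same total turned the list of 6 higher and 7 lower genes, Cd69 included, into 10 higher and 4 lower, again beside 31.2% and 8.83% of all genes.

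Genes low in tissue-resident cells had 4 of 11 further genes higher and 3 lower, beside 17.6% and 19.0% of all genes. Gpr183, an oxysterol receptor that positions lymphocytes, rose from 5.87 to 9.16 FPKM (0.63), and Eomes, a T-box factor of memory and effector cells, rose from 9.46 to 12.7 FPKM (0.42). Lef1, a factor of naive T cells, fell from 8.45 to 6.34 FPKM (-0.41). Members included, 10 of the 15 tested genes of this list were called, beside 36.5% of all genes, with 6 higher and 4 lower, and 8 and 3 with samples scaled to the same total (31.2% and 8.83% of all genes). The medians of the lists ran from 0.02 for the KLF2 and FOXO1 list to 0.23 for the circulating list, beside -0.02 for all genes tested.

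**Figure D5:**
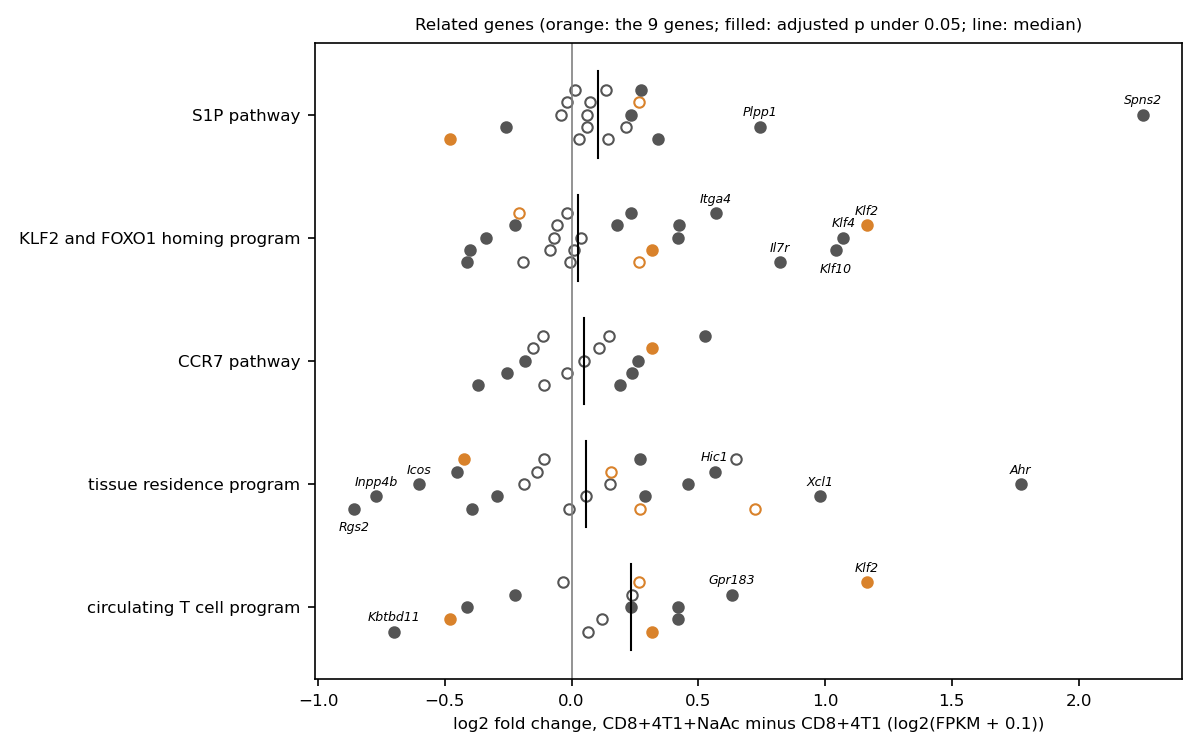
Log2 fold change (CD8+4T1+NaAc minus CD8+4T1, log2(FPKM + 0.1), limma, 5 samples a group) of each tested gene in 5 lists of related genes, with members in orange, filled circles for an adjusted p under 0.05 and a line at the list median. The medians, members included, lie between 0.02 and 0.23, and the points of every list fall on both sides of 0.

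Of 7 tested genes listed as partners of the members, 2 were higher and 1 lower, a share of calls near the 36.5% of all genes. Cxcl16, the ligand of CXCR6, was at 5.38 and 6.85 FPKM (log2 fold change 0.35, adjusted p = 0.113 in limma). Cxcl16 passed with samples scaled to the same total (0.52, adjusted p = 0.0148) or to T cell markers (0.49, adjusted p = 0.0163). Cdh1, E-cadherin, the ligand of CD103, was below the filter at 0.0316 and 0.606 FPKM without overlap between groups. Clec2d, the lower gene of this list, fell from 34.8 to 19.4 FPKM (-0.81). Its product is a ligand of an NK receptor and not of a member. S100a8, a granulocyte and stress protein whose complex with S100A9 binds CD69, had 0 to 10 fragments in CD8+4T1 and 21 to 57 in CD8+4T1+NaAc. It passed the filter only through the NaAc samples, so its difference is a description. S100a9 was at 0. Cdh1 is also on the 4T1 marker list, whose sums rose as given beside Klf2, and the part of tumor cell RNA in these genes was not tested.

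The genes whose pattern over the 10 samples was most like that of a member are given as a description. Pearson's r, on log2(FPKM + 0.1) among protein-coding genes averaging 1 FPKM or more, was 0.99 for Klf2 with Lzts3 and 0.98 with Socs3, a feedback inhibitor of cytokine receptors. S1pr1 was most like Dtl (0.97) and Txnip (0.95), the latter a regulator of glucose uptake, and S1pr4 like Utp11 and Smdt1 (0.97 each). Ccr7 was most like Gimap6 (0.97), a lymphocyte GTPase, and Ino80c (0.96), and Cd69 like Tmem95 (0.97) and Rhot1 (0.96). Elf4 was most like E2f3 (0.98) and 2810021J22Rik (0.97), Cxcr6 like Fkbp1b (0.98) and Trappc10 (0.96), Itgae like Bcat2 (0.94) and Ociad2 (0.93), and Zfp683 like Crtc1 (0.90, the second highest). These values share the libraries and the difference between groups, and each is the highest among many genes.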

How the data were processed

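RNA of purified CD8+ T cells was sequenced in 10 samples, grouped by the labels. The submitters' processing notes name fastp, HISAT2 2.0.5, StringTie 1.3.3b and featureCounts 1.5.0-p3, and the methods add DESeq2 for the study's own comparison. The authors deposited FPKM per gene and sample, with position, length and biotype. The build and the strand setting are not given in the sources used here. The positions are not those of GRCm38, since 1467 of 52073 genes shared with its GENCODE annotation have the same start and end. FPKM multiplied by length gave whole fragments for every sample (within 0.1 of a whole number). There were 0 other per-sample columns.

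FPKM are not counts, so genes averaging 0.5 FPKM or more were compared on log2(FPKM + 0.1) in limma 3.58.1 (R 4.3.3) with a variance trend and robust moderation, and Benjamini-Hochberg adjustment over all genes tested. This scale understates the change of low genes. A gene under 0.5 FPKM in a group could pass the filter through the other group. Among those were Zfp683, Spns2, Ahr, S100a8, Pdpn and the 4T1 markers Krt7, Cldn3 and Ocln. Intervals are 95%. Ratios of FPKM + 0.1 were compared on the log2 scale by an exact permutation test (252 assignments). Figures were drawn with matplotlib 3.10.9.

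Named genes were all members, the 3 genes of each list with the smallest adjusted p, 9 genes chosen by name, single markers and the 2 genes most like each member. A few genes that this rule names are not reported here by themselves. The members and lists were chosen with earlier results of these data known. Alternatives were other pseudocounts (1 and 0.01), filters, scalings, variance models, thresholds, voom on fragments, protein-coding genes alone, the replicate block and samples left out.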

Additional observations from a re-analysis of the deposited data

Results flagged for a closer look

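Of 54 groups of 5 samples checked for a single sample far from the rest, 4 passed Dixon's 95% critical value of 0.71 for the gap divided by the range, where chance gives about 1 in 20 (2.7 groups). In the ratio of Cd69 to Cd8a, replicate 1 of CD8+4T1+NaAc was far above the other 4 (0.751). In depth, replicate 2 of CD8+4T1+NaAc had more fragments than the others (0.747). In the number of genes above 0, replicate 1 was the lowest of both groups, at 0.848 of the range in CD8+4T1 and 0.916 in CD8+4T1+NaAc.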

How the results depend on the processing

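No member's log2 fold change and none of the 14 ratios changed sign under the alternatives run. In all, 5742 genes were called, 3733 at a mean of at least 5 FPKM, 3702 at an adjusted p under 0.01, 1016 at an adjusted p under 0.05 with an absolute log2 fold change over 1, and 4947 to 6965 with 1 sample left out. Scaling moved the split of calls, from 2764 higher and 2978 lower to 4900 and 1387 (same total) or 4051 and 1299 (T cell markers). Median-ratio scaling gave 2812 and 2929, with the same 4 members called. Of the members 4 were called, 8 with sample weights (where 48.3% of all genes were called), 1 with an absolute log2 fold change over 1 and 3 to 7 with 1 sample left out, the 7 without replicate 1 of CD8+4T1+NaAc. Klf2 was called under every alternative that tested it. At a mean of at least 5 FPKM Klf2, S1pr1, Itgae and Zfp683 gave no value. Over all tested genes same-numbered samples did not deviate together (mean r = 0.01). Single members could, since S1pr1 and Ccr7 were lowest in replicate 1 and highest in replicate 5 of both groups. Klf2 was highest in replicate 5 of CD8+4T1 and lowest in replicate 5 of CD8+4T1+NaAc. The replicate block called 5399 genes and 6 members (Klf2, Ccr7, S1pr1, S1pr4, Elf4 and Cd69). Of the 14 ratios 10 were called, 0 with the replicate block, where 5 pairs cannot give a p under 0.0625, and 0 to 12 with 1 sample left out. Zfp683 rested on 3 to 29 fragments a sample, and S1pr5 and Itga1, below the filter, were not tested.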
